A study of Mus musculus with 3 samples.

Results

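The 9 genes described here encode the vitamin K cycle and the *Gas6* receptor system: the carboxylase *Ggcx*, the reductases *Vkorc1*, *Vkorc1l1* and *Nqo1*, the ligands *Gas6* and *Pros1*, and the receptors *Axl*, *Mertk* and *Tyro3*. They were chosen by name, and all 9 are among the 32285 genes counted. Their levels were measured by 10x Genomics scRNA-seq in cells of the inguinal stromal vascular fraction (SVF), the non-adipocyte cells of the subcutaneous fat pad, after removal of CD45-positive cells. All mice were 4 weeks old. The wild-type library pooled cells of 12 mice, the *Mgp*-KO library cells of 13 mice with global deletion of matrix Gla protein (*Mgp*), and the *Pd*-KO library cells of 11 mice with floxed *Mgp* alleles and a *Pdgfra*-Cre transgene. *Pdgfra* is a gene of adipose progenitor cells (APCs), and the Cre acts in cells that use its promoter or descend from such cells. Each genotype is thus 1 pooled library, there is no replicate of any genotype, and a floxed control without Cre is not analysed here.

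MGP is a secreted protein that carries gamma-carboxyglutamate (Gla) residues. These are made from glutamate by GGCX, which oxidises reduced vitamin K as it works, and VKORC1 returns the vitamin to its reduced form. VKORC1L1 is a paralogue with the same activity, and NQO1 is a cytosolic quinone reductase that can also reduce vitamin K. GAS6 and protein S (PROS1) are Gla proteins as well. They bridge phosphatidylserine on dying cells to receptors of the TAM family (TYRO3, AXL and MERTK), though the ligands do not share every receptor. TAM receptors act in the uptake of such cells and restrain inflammation. In adipose tissue, GAS6 and AXL have been studied as regulators of progenitors and of the vasculature.

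The sequence in front of the genes is shown for the vitamin K reductases *Vkorc1* and *Vkorc1l1*. In APCs the former was lower, and the latter higher, in both knockout libraries than in the wild-type library. The sequence is also shown for *Axl* and *Mertk*, of which the first was higher and the second lower in APCs than in vascular cells. The bases precede the RefSeq start of each gene in GRCm38.p6, are written 5′ to 3′ on the strand of the gene, and carry in capitals the GC box (GGGCGG, or CCGCCC on the other strand) and the CCAAT box (CCAAT or ATTGG). *Vkorc1* is on the minus strand at chr7:127895618-127895867, *Axl* on the minus strand at chr7:25788734-25788983, and *Mertk* on the plus strand at chr2:128698665-128698914. *Vkorc1l1* is on the plus strand at chr5:129941859-129941969, where the window stops before the first annotated exon.
Vkorc1: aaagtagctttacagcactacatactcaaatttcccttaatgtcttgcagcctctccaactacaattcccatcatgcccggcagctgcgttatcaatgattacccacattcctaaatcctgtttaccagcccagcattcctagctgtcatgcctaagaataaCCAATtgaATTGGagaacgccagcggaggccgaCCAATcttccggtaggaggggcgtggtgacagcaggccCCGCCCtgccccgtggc
Vkorc1l1: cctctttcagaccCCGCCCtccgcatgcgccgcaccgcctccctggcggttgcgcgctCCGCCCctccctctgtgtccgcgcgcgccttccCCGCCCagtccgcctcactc
Axl: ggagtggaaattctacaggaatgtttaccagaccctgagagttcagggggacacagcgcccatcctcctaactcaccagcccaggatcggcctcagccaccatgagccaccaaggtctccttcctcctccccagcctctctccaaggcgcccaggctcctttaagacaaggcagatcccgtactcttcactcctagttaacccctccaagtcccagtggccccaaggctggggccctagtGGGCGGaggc
Mertk: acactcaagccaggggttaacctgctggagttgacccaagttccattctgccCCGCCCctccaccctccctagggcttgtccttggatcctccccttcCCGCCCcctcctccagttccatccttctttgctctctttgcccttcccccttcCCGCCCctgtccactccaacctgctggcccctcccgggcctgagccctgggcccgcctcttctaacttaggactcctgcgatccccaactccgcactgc
In the 250 bases before the RefSeq start, a GC box was found in all 9 members, against 32.7% of the 32851 promoter windows. The window of *Tyro3* (chr2:119799264-119799513) lies inside the gene as annotated in GENCODE M21, and that of *Vkorc1l1* runs past the start given there. A CCAAT box was found in 2 of 9, with 3 matches in *Vkorc1* and 1 in *Vkorc1l1* (in the part not printed), against 33.8% of all windows. The TATA box (TATAAA or TTTATA) was found in *Nqo1* alone, against 12.4% of all windows. The antioxidant response element (TGACNNNGC or GCNNNGTCA) was found in 0 of 9 windows, against 10.2% of all. These are matches of letters in a short window and do not show binding.

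In GRCm38 (GENCODE M21), *Ggcx* lies on chromosome 6 from 72414308 to 72430712, *Vkorc1* on chromosome 7 from 127893063 to 127895617, *Vkorc1l1* on chromosome 5 from 129941970 to 129986692 and *Nqo1* on chromosome 8 from 107388225 to 107403206. *Gas6* lies on chromosome 8 from 13465374 to 13494490 and *Pros1* on chromosome 16 from 62854307 to 62929346. *Axl* lies on chromosome 7 from 25757273 to 25788705, *Mertk* on chromosome 2 from 128698956 to 128802894 and *Tyro3* on chromosome 2 from 119797733 to 119818104. Levels are of the whole gene as counted by its identifier.

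Cells were barcodes with at least 2000 unique molecular identifiers (UMIs, one per counted transcript) and at most 10% mitochondrial UMIs, which left 10511 cells in the wild-type, 12575 in the *Mgp*-KO and 8819 in the *Pd*-KO library, with a median of 12802, 6445 and 8269 UMIs. Pairs of libraries shared 35 to 40 cell barcodes. Cells were gated by at least 2 UMIs of 1 marker and none of the others, and a level in CPM is the UMIs of a gene over all UMIs of the gate, times 1000000. Values of the 3 libraries are given with wild-type first, then *Mgp*-KO and last *Pd*-KO. The *Pdgfra* gate held 4034, 5757 and 4327 cells in the 3 libraries, the endothelial *Pecam1* gate 429, 173 and 523, the smooth muscle *Myh11* gate 672, 168 and 234, and the epithelial *Epcam* gate 178, 510 and 95. The markers of each of these cell types were detected in their gate in every library, and their summed level was higher there than in the other 3 gates. In the *Myh11* gate of the *Mgp*-KO library, 4 myoepithelial markers (*Krt14*, *Krt5*, *Krt17* and *Oxtr*) together reached 1431 CPM, against 70.7 CPM in the wild-type and 110 CPM in the *Pd*-KO library. Cells with *Xist* UMIs and no Y-linked UMIs made up 60.6% of the *Mgp*-KO cells, 35.1% of the wild-type and 32.5% of the *Pd*-KO cells. Those with Y-linked and no *Xist* UMIs made up 14.7%, 35.1% and 39.5% in the same order, and the rest were not assigned a sex.

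*Mgp* itself, the deleted gene, was read first as a check of the labels. In the *Pdgfra* gate it stood at 495 CPM in the wild-type, 0.506 CPM in the *Mgp*-KO and 1.21 CPM in the *Pd*-KO library. In the *Pecam1* gate it stood at 830 CPM in the wild-type, 0 CPM in the *Mgp*-KO and 55.8 CPM in the *Pd*-KO library. In the small *Rgs5* gate of pericytes, the *Pd*-KO library still held 1084 CPM of *Mgp* in 127 cells, against 552 CPM in 37 wild-type cells. In the *Myh11* gate the *Pd*-KO library held 34.9 CPM against 267 CPM in the wild-type, and in the *Epcam* gate 6.03 against 28.0 CPM. Both knockout libraries thus lacked most of the *Mgp* of APCs. The *Pd*-KO library also held less *Mgp* than the wild-type in the *Pecam1*, *Myh11* and *Epcam* gates, and kept it in the pericyte gate.

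The first comparison asked in which cell types the members were found. Gates of the same 3 libraries were compared by edgeR's quasi-likelihood test with the library as a block, with Benjamini-Hochberg adjustment over 13208 genes (n = 3 libraries per gate). Against the *Pdgfra* gate, 5 of 9 members differed in the *Pecam1* gate, where 47.1% of all genes tested differed. In the *Myh11* gate 7 of 9 differed, against 40.6% of all genes, and in the *Epcam* gate 9 of 9, against 61.8%. Without the wild-type library, 3 members in place of 6 were called lower in the *Myh11* gate. Over all genes, calls in either direction fell there too, from 5362 of 13208 to 3606 of 12288. The other pairs of gates were chosen once the data were known. Between the *Myh11* and *Pecam1* gates 2 of 9 differed (35.5% of all genes), between *Epcam* and *Pecam1* 7 of 9 (52.1%), and between *Epcam* and *Myh11* 5 of 9 (50.3%). The block takes out the level of each library, and with it that of its genotype. What remains is how a difference between gates varies over libraries, which are of different genotypes. Highest and lowest refer below to these 4 gates. Free RNA (barcodes of 10 to 100 UMIs) held UMIs of every member, and its part in the values below was not tested.

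**Figure D1:**
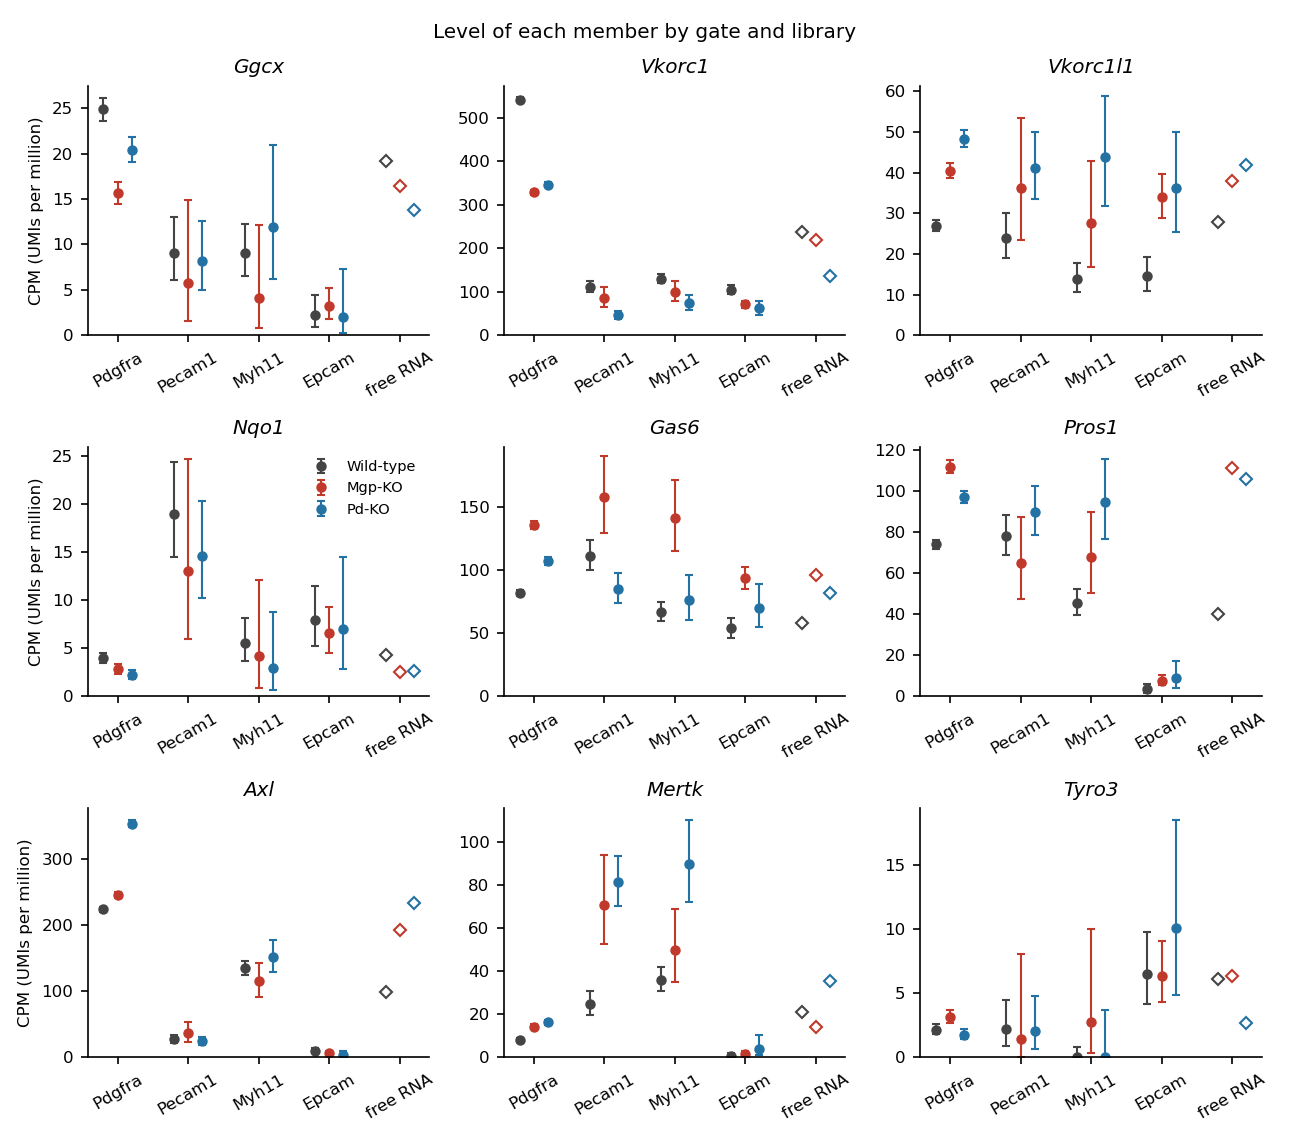
Level of each member in CPM (vertical axis from 0, a scale for each gene) in the *Pdgfra*, *Pecam1*, *Myh11* and *Epcam* gates, with 1 point per library, exact Poisson 95% intervals for counting error, and open diamonds for free RNA (barcodes of 10 to 100 UMIs). *Vkorc1* and *Axl* stood highest in the *Pdgfra* gate in all 3 libraries, *Nqo1* in the *Pecam1* gate, *Mertk* in the *Pecam1* or *Myh11* gate, and *Pros1*, *Axl* and *Mertk* were low in the *Epcam* gate.

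Of the enzymes, the carboxylase *Ggcx* and the reductase *Vkorc1* were highest in APCs. *Ggcx* stood at 24.8, 15.6 and 20.4 CPM in the *Pdgfra* gate of the 3 libraries. Its level was 9.05, 5.80 and 8.14 CPM in the *Pecam1* gate and 9.02, 4.16 and 11.97 CPM in the *Myh11* gate. In the *Epcam* gate it was 2.26, 3.18 and 2.01 CPM. The *Pdgfra* gate lay above the 3 other gates in every library, and the *Epcam* gate below them. The log2 fold against the *Pdgfra* gate was -1.60 ± 0.25 (SE, adjusted p = 0.000311) in the *Pecam1* gate and -3.00 ± 0.28 (adjusted p = 4.22e-06) in the *Epcam* gate. The difference between the *Pecam1* and *Myh11* gates did not pass (adjusted p = 0.832).

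*Vkorc1*, the target of warfarin, was highest in APCs as well. In the *Pdgfra* gate it stood at 542, 329 and 346 CPM in the 3 libraries. In the *Pecam1* gate it reached 112, 85.5 and 46.8 CPM, in the *Myh11* gate 130, 99.8 and 74.8 CPM, and in the *Epcam* gate 104, 71.3 and 62.3 CPM. Every value of the *Pdgfra* gate thus exceeded every value of the other gates. The log2 fold against the *Pdgfra* gate was -2.59 ± 0.18 (SE) in the *Pecam1*, -2.22 ± 0.18 in the *Myh11* and -2.56 ± 0.18 in the *Epcam* gate (adjusted p = 1.00e-06, 4.48e-06 and 6.75e-07). No pair of the 3 lower gates differed past the threshold (adjusted p = 0.139, 0.902 and 0.137). Free RNA held *Vkorc1* at 136 to 238 CPM, above the level in these 3 gates, and its part in their values was not tested. *Vkorc1* shares its strand with the overlapping gene model *Gm21974*, so that reads of the pair cannot always be separated.

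*Vkorc1l1*, the paralogue, was spread more evenly. It stood at 26.9, 40.5 and 48.3 CPM in the *Pdgfra* gate, 24.0, 36.2 and 41.1 CPM in the *Pecam1* gate, 14.0, 27.7 and 43.9 CPM in the *Myh11* gate and 14.7, 33.9 and 36.2 CPM in the *Epcam* gate of the 3 libraries. The gates overlapped once libraries were mixed, and within each library the *Pdgfra* gate was highest. The difference from the *Pecam1* gate did not pass (log2 fold -0.39 ± 0.17, SE, adjusted p = 0.0851), while those from the *Myh11* (-0.75 ± 0.18, adjusted p = 0.00722) and *Epcam* gates (-0.68 ± 0.17, adjusted p = 0.00495) did. Without the wild-type library these calls were lost, with log2 folds of -0.53 (adjusted p = 0.113) and -0.47 (adjusted p = 0.0766). *Vkorc1l1* shares its strand with the overlapping gene models *Gm42986* and *Gm43482*, so that their reads cannot always be separated.

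*Nqo1*, a detoxifying enzyme of many epithelia, was distributed differently from *Vkorc1*. In each library it was lowest in APCs, at 3.96, 2.82 and 2.26 CPM, and highest in endothelial cells, at 19.0, 13.04 and 14.7 CPM. The *Epcam* gate lay between them at 7.92, 6.57 and 7.04 CPM. The groups did not overlap, and the log2 fold against the *Pdgfra* gate was 2.19 ± 0.22 (SE, adjusted p = 1.15e-05) in the *Pecam1* gate and 1.07 ± 0.22 (adjusted p = 0.00166) in the *Epcam* gate. In the *Myh11* gate *Nqo1* stood at 5.59, 4.16 and 2.99 CPM, which was not distinguished from the *Pdgfra* gate (adjusted p = 0.336).

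The ligand *Gas6* had UMIs in all 4 gates. Its level in the 3 libraries was 81.8, 136 and 108 CPM in the *Pdgfra* gate and 112, 158 and 85.1 CPM in the *Pecam1* gate, a difference that did not pass (log2 fold -0.09 ± 0.17, SE, adjusted p = 0.688). The *Myh11* gate held 66.6, 141 and 76.8 CPM, and the *Epcam* gate 54.0, 93.5 and 70.4 CPM. In all 4 gates the *Mgp*-KO library was highest. Only the *Epcam* gate was called lower than the *Pdgfra* gate (-0.79 ± 0.17, adjusted p = 0.00197), and the *Myh11* gate passed the threshold once the *Mgp*-KO library was left out (adjusted p = 0.0428, against 0.0574 with it). In free RNA *Gas6* stood at 58.3, 96.1 and 82.2 CPM in the 3 libraries, above the *Epcam* gate in each. *Tmem255b* overlaps *Gas6* on the other strand.

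*Pros1*, which encodes the anticoagulant protein S, was lowest in epithelial cells. It stood at 74.1, 112 and 97.2 CPM in the *Pdgfra* gate, 78.3, 65.2 and 90.0 CPM in the *Pecam1* gate and 45.6, 67.9 and 94.7 CPM in the *Myh11* gate, ranges that overlap. The *Epcam* gate held 3.395, 7.63 and 9.05 CPM, below all of these. In free RNA *Pros1* stood at 40.0, 111 and 106 CPM, above the *Pecam1* and *Myh11* gates in both knockout libraries. The log2 fold of the *Epcam* against the *Pdgfra* gate was -4.07 ± 0.25 (SE, adjusted p = 2.91e-07). The *Myh11* gate was called lower than the *Pdgfra* gate (-0.69 ± 0.20, adjusted p = 0.0168), but not without the wild-type (adjusted p = 0.0607) or the *Mgp*-KO library (adjusted p = 0.0550). The *Pecam1* gate was not called (adjusted p = 0.0924), and was without the wild-type library (log2 fold -0.61, adjusted p = 0.0437).

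The receptors split by cell type. *Axl*, the receptor with the highest affinity for GAS6, stood at 224, 245 and 353 CPM in the *Pdgfra* gate of the 3 libraries. It followed at 135, 115 and 152 CPM in the *Myh11* gate, 27.8, 36.2 and 24.0 CPM in the *Pecam1* gate and 9.62, 6.998 and 4.02 CPM in the *Epcam* gate. The 4 gates had no overlap. Each step of this order passed the test: *Myh11* against *Pdgfra* at a log2 fold of -1.23 ± 0.24 (SE, adjusted p = 0.00207), *Pecam1* below *Myh11* (adjusted p = 9.65e-05) and *Epcam* below *Pecam1* (adjusted p = 0.000875). From APCs to epithelial cells the log2 fold was -5.31 ± 0.31 (adjusted p = 2.31e-07). In free RNA *Axl* stood at 99.2, 192 and 233 CPM. This was above the *Pecam1* gate in every library and above the *Myh11* gate in both knockout libraries.

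*Mertk*, the receptor best known from phagocytes, was higher in the vascular gates than in the other gates tested. In the *Pdgfra* gate it stood at 8.23, 14.3 and 16.3 CPM, in the *Pecam1* gate at 24.6, 71.0 and 81.4 CPM and in the *Myh11* gate at 35.9, 49.9 and 89.8 CPM. Both vascular gates lay above the *Pdgfra* gate in every library, with log2 folds of 1.85 ± 0.20 (SE, adjusted p = 2.46e-05) and 1.97 ± 0.20 (adjusted p = 2.48e-05), while the difference between them did not pass (adjusted p = 0.725). The *Epcam* gate was lowest at 0.566, 1.48 and 4.02 CPM (log2 fold -3.25 ± 0.33, adjusted p = 9.93e-06). In free RNA *Mertk* stood at 20.9, 13.9 and 35.6 CPM, above the *Pdgfra* gate in the wild-type and *Pd*-KO libraries. Leukocyte markers summed to 29.3 to 69.6 CPM in the *Pecam1* gate, with 5, 2 and 4 of 6 detected, to 2.77 to 7.52 CPM in the *Myh11* gate, with 5, 1 and 2 of 6 detected, and to 2176 to 17686 CPM in the few cells with *Ptprc* (CD45). At 0 in the *Pecam1* gate were *Tyrobp* in the wild-type library, *Tyrobp*, *Csf1r*, *Cd52* and *Laptm5* in the *Mgp*-KO and *Tyrobp* and *Csf1r* in the *Pd*-KO library. In the cells with *Ptprc*, *Csf1r* was itself at 0 in the wild-type and *Mgp*-KO libraries. The part of leukocytes in the *Mertk* values was not tested. An antisense gene model, *Gm14011*, and a small RNA, *Gm23172*, lie within *Mertk*.

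*Tyro3*, the receptor best known from the nervous system, stood at 6.51, 6.36 and 10.1 CPM in the *Epcam* gate and 2.17, 3.15 and 1.78 CPM in the *Pdgfra* gate, so that the epithelial values were higher (log2 fold 1.43 ± 0.46, SE, adjusted p = 0.0183). This call rested on 23, 30 and 10 UMIs in the *Epcam* gate and was lost without the wild-type (1.46, adjusted p = 0.0561) or the *Pd*-KO library (1.10, adjusted p = 0.155). In the *Myh11* gate *Tyro3* had 0 UMIs in the wild-type and *Pd*-KO libraries, where 3 UMIs, the number that a count of 0 allows, would be 0.645 and 2.99 CPM. It had 2 UMIs in the *Mgp*-KO library. The call against the *Pdgfra* gate there (adjusted p = 0.0348) was lost without the wild-type (adjusted p = 0.452) or the *Pd*-KO library (adjusted p = 0.105).

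**Figure D2:**
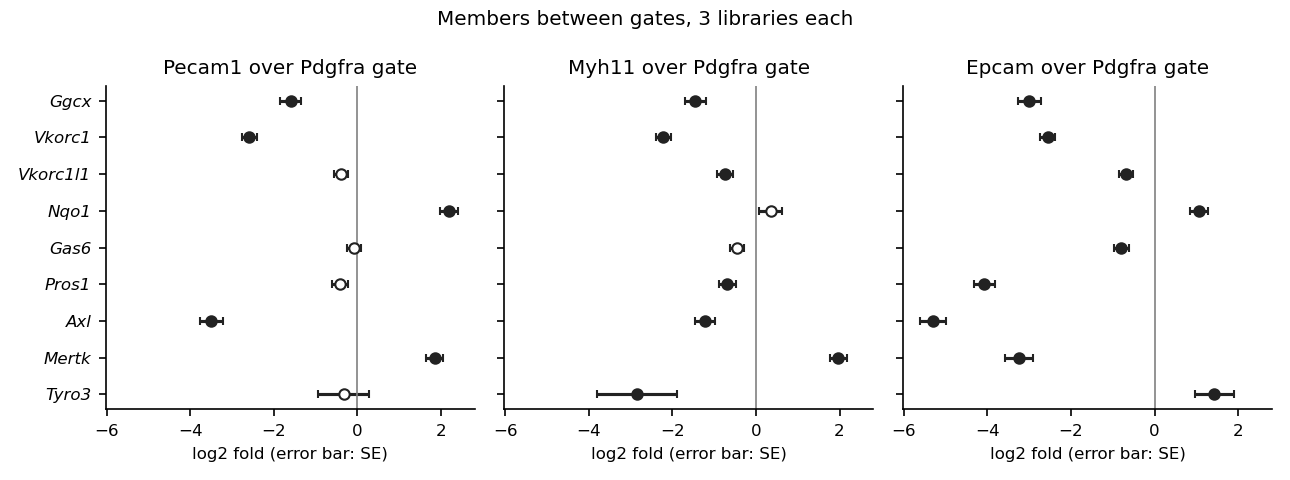
Log2 fold of each member in the *Pecam1*, *Myh11* and *Epcam* gates over the *Pdgfra* gate (horizontal axis) from edgeR over 3 libraries, with standard errors, and filled points where the adjusted p was under 0.05. *Vkorc1* and *Axl* lie to the left in all 3 panels, *Mertk* to the right in the vascular gates and to the left in the *Epcam* gate, and *Nqo1* at 2.19 in the *Pecam1* gate.

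Gates with fewer than 50 cells in a library were not tested. In the *Rgs5* gate of pericytes, the *Pd*-KO library (127 cells) held *Pros1* at 182 CPM, *Vkorc1* at 109 CPM, *Axl* at 97.4 CPM, *Mertk* at 62.2 CPM and *Gas6* at 4.79 CPM. The *Gas6* value came from 3 UMIs, whereas the *Myh11* gate of the same library had 76.8 CPM. In the 37 wild-type cells of the *Rgs5* gate, *Pros1* stood at 94.96 CPM and *Gas6* at 21.6 CPM. In the *Adipoq* gate of early adipocytes (61, 14 and 13 cells), *Vkorc1* stood at 205, 132 and 187 CPM and *Axl* at 31.3, 23.6 and 33.0 CPM in the 3 libraries, both below the *Pdgfra* gate. *Vkorc1l1* stood at 38.6, 75.5 and 110 CPM there. The last of these rested on 20 UMIs.

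The share of cells with a UMI was compared after each cell had been thinned to 2000 UMIs, so that members were counted at equal depth. The gates were set on the counts before thinning, so that depth could still affect which cells a gate held. *Vkorc1* was detected in 62.8% of the wild-type, 44.8% of the *Mgp*-KO and 48.0% of the *Pd*-KO cells of the *Pdgfra* gate, and in 7.65% to 21.1% of the cells of the *Pecam1*, *Myh11* and *Epcam* gates. Without thinning the shares in the *Pdgfra* gate were 97.4%, 83.4% and 89.0%. *Axl* was detected in 33.8%, 36.5% and 45.2% of the cells of the *Pdgfra* gate and in 1.69%, 0.980% and 0% of the *Epcam* gate, the lowest gate. The 0% came from 0 of 95 cells and its exact 95% binomial interval reached 3.81%. The median depth before thinning was 14407.5, 7267 and 9738 UMIs in the *Pdgfra* gate and 19145, 8354.5 and 9758 UMIs in the *Epcam* gate. For *Mertk* the shares were 5.36%, 12.7% and 14.3% in the *Pecam1* gate, 1.51%, 2.90% and 3.37% in the *Pdgfra* gate and 0% (0 of 178 cells, interval up to 2.05%), 0.392% and 1.05% in the *Epcam* gate. Shares and levels did not rank the gates alike for every member. The *Pdgfra* gate was highest by level for 4, 5 and 6 of 9 members in the 3 libraries and by share for 4, 4 and 3. The share of all genes that are highest in this gate is not given, so that these counts have no background beside them. In the *Pd*-KO library, *Vkorc1l1* was highest by share in the *Epcam* gate (11.6% against 9.41% in the *Pdgfra* gate), *Gas6* in the *Pecam1* gate (15.5% against 13.9%) and *Pros1* in the *Myh11* gate (18.4% against 17.1%), each with overlapping 95% intervals.

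Within the *Pdgfra* gate, cells were assigned to 3 subgates by their sums of *Dpp4* and *Pi16* (interstitial progenitors), *Icam1* and *Bmper* (committed preadipocytes) or *Gdf10* and *F3* (adipogenesis regulators, Aregs). The authors found the progenitor clusters ASC1, with *Dpp4* and *Pi16*, and ASC4, with *Icam1*, *Bmper* and *Dpp4*, mainly after *Mgp* deletion. A subgate may thus hold different populations in wild-type and knockout libraries, also where genotypes are compared within it below. This was not tested. The ligand *Gas6* was lowest, and its receptor *Axl* highest, in the *Dpp4* and *Pi16* subgate. *Gas6* stood at 51.0, 110 and 80.9 CPM in the *Dpp4* and *Pi16* subgate of the 3 libraries and at 182, 328 and 300 CPM in the *Gdf10* and *F3* subgate. The log2 ratio of the latter over the former was 1.84 (95% interval for counting error 1.73 to 1.94), 1.58 (1.46 to 1.69) and 1.89 (1.78 to 2.00). *Gas6* in each library was thus highest in the *Gdf10* and *F3* cells, and the *Icam1* and *Bmper* cells lay between at 73.3, 136 and 116 CPM.

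*Axl* stood at 390, 347 and 447 CPM in the *Dpp4* and *Pi16* subgate, at 120, 131 and 148 CPM in the *Icam1* and *Bmper* subgate and at 132, 121 and 135 CPM in the *Gdf10* and *F3* subgate. The log2 ratio of the *Gdf10* and *F3* over the *Dpp4* and *Pi16* cells was -1.57 (-1.65 to -1.48), -1.52 (-1.69 to -1.35) and -1.73 (-1.87 to -1.59). Within single cells of the *Pdgfra* gate, thinned to 2000 UMIs, *Axl* was detected in 25.4%, 28.4% and 34.1% of the cells with a *Gas6* UMI and in 35.0%, 38.1% and 47.0% of those without. The 95% binomial intervals of these shares did not overlap in any library. They cover counting error over the cells of 1 pooled library only. *Axl* was detected in 37.5%, 32.2% and 38.1% of the cells with a *Pros1* UMI and in 33.3%, 37.6% and 46.7% of those without. *Mertk* was detected in 1.25%, 1.93% and 3.49% of the cells with a *Gas6* UMI. In those without it was 1.55%, 3.09% and 3.36%, with overlapping intervals in each library.

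*Mertk* was higher in the *Icam1* and *Bmper* cells, at 11.2, 25.4 and 34.3 CPM, than in the *Dpp4* and *Pi16* cells, at 4.18, 7.105 and 10.4 CPM. The log2 ratio was 1.42 (1.07 to 1.78), 1.84 (1.57 to 2.11) and 1.72 (1.48 to 1.96). *Pros1* differed little between these subgates in the wild-type library (74.0 against 65.9 CPM, log2 ratio 0.17) and more in the knockouts (145 against 83.4 CPM, log2 ratio 0.80, and 141 against 75.2 CPM, log2 ratio 0.90). *Nqo1* was higher in the *Icam1* and *Bmper* than in the *Dpp4* and *Pi16* cells in each library, with log2 ratios of 0.90, 1.53 and 1.21. *Vkorc1* varied by less, from 498 to 615 CPM over the wild-type subgates, and *Vkorc1l1* from 26.2 to 27.0 CPM.

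**Figure D3:**
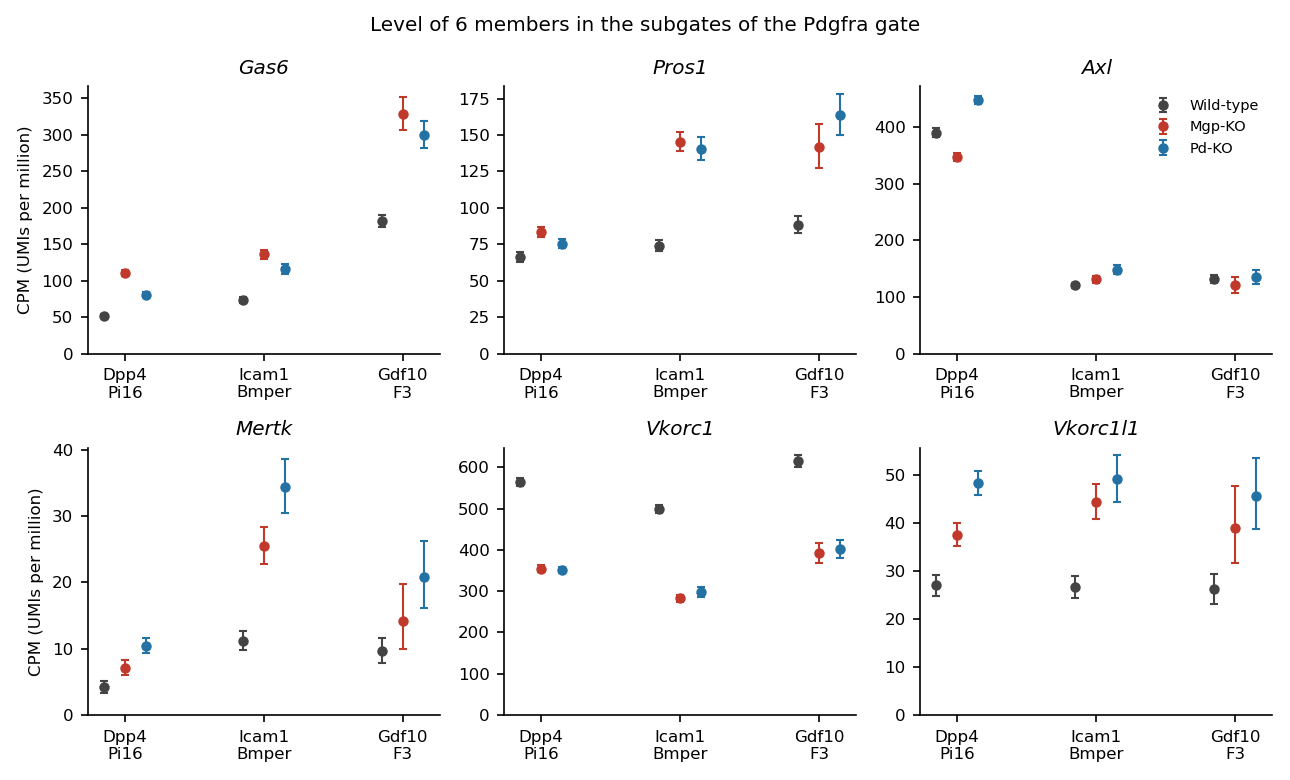
Levels of *Gas6*, *Pros1*, *Axl*, *Mertk*, *Vkorc1* and *Vkorc1l1* in CPM (vertical axis from 0) in the 3 subgates of the *Pdgfra* gate, with 1 point per library and exact Poisson 95% intervals. *Gas6* is highest in the *Gdf10* and *F3* subgate and *Axl* is highest in the *Dpp4* and *Pi16* subgate in each library, while *Vkorc1* lies higher and *Vkorc1l1* lower in wild-type than in knockout cells in all 3 subgates.

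The second comparison asked how the members differed between genotypes. With 1 library per genotype no test was possible, and a difference of at least 2-fold was used as the mark. In the *Pdgfra* gate 0 of 9 members were 2-fold higher in *Mgp*-KO APCs than in those of the wild-type library, whereas 19.7% of all 14342 genes were, and 0 of 9 were 2-fold lower, against 3.19% of all genes. In *Pd*-KO cells 0 of 9 were 2-fold higher than in wild-type cells (22.0% of all 14309 genes) and 0 of 9 were 2-fold lower (5.82%). All members but *Tyro3* had the same sign in both knockouts. The share of all genes with the same sign in both is not given, so that this agreement has no background beside it. Both knockouts are set against the same wild-type library.

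The enzymes of APCs went in both directions. For *Vkorc1*, the levels of 542, 329 and 346 CPM gave a log2 ratio over wild-type of -0.72 (95% interval for counting error -0.75 to -0.69) in *Mgp*-KO and -0.65 (-0.67 to -0.62) in *Pd*-KO cells. For *Ggcx* the log2 ratio was -0.67 (-0.80 to -0.54) and -0.29 (-0.41 to -0.16). *Nqo1* was lower as well, with -0.49 (-0.81 to -0.17) and -0.81 (-1.16 to -0.47), on 128 and 99 UMIs against 239. *Vkorc1l1*, in contrast, was higher in both knockouts, with 0.59 (0.49 to 0.69) and 0.84 (0.75 to 0.94). In all 3 subgates *Vkorc1* was lower and *Vkorc1l1* higher in each knockout than in the wild-type cells. *Ggcx* in *Pd*-KO over wild-type cells had -0.37 (-0.55 to -0.19) in the *Dpp4* and *Pi16* subgate. It had 0.02 (-0.22 to 0.26) in the *Icam1* and *Bmper* and 0.25 (-0.09 to 0.57) in the *Gdf10* and *F3* subgate. In *Mgp*-KO cells the ratios of *Ggcx* were, in the same order, -0.63, -0.57 and -0.42 (-0.88 to 0.02). In *Pd*-KO cells called female *Ggcx* had -0.04, and in those called male -0.40.

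The ligands were higher in both knockouts. *Gas6* had a log2 ratio of 0.73 (0.68 to 0.79) in *Mgp*-KO and 0.39 (0.34 to 0.45) in *Pd*-KO cells, and *Pros1* of 0.60 (0.54 to 0.65) and 0.39 (0.33 to 0.45). Of the cells of the *Pdgfra* gate, 62.0% were called female in the *Mgp*-KO library, against 34.8% in the wild-type and 32.0% in the *Pd*-KO library. Male calls made up 17.6%, 38.9% and 45.3% in the same order. In cells called female the ratio of *Gas6* was 0.95 in *Mgp*-KO and 0.10 in *Pd*-KO cells, and in cells called male (Y-linked and no *Xist* UMIs) it was 0.18 and 0.56. *Vkorc1l1* likewise had 0.70 in female and 0.26 in male *Mgp*-KO cells, *Pros1* 0.65 and 0.30, and *Mertk* 0.92 and 0.37. Within the subgates the ratio of *Gas6* was larger, from 0.85 to 1.11 in *Mgp*-KO and from 0.66 to 0.72 in *Pd*-KO cells. The make-up of the gate differed, with 19.4% of the wild-type, 6.81% of the *Mgp*-KO and 9.89% of the *Pd*-KO cells of the *Pdgfra* gate in the *Gdf10* and *F3* subgate, where *Gas6* was highest. Of the receptors, *Axl* was higher by 0.13 (0.10 to 0.17) in *Mgp*-KO and 0.66 (0.62 to 0.69) in *Pd*-KO cells on the log2 scale. In the subgates these shrank to between -0.17 and 0.13 in *Mgp*-KO and between 0.04 and 0.30 in *Pd*-KO cells. *Mertk* had 0.80 (0.62 to 0.97) and 0.98 (0.82 to 1.15), and in the subgates 0.57 to 1.18 and 1.12 to 1.62. *Tyro3* had 0.54 (0.19 to 0.89) and -0.29 (-0.71 to 0.13).

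**Figure D4:**
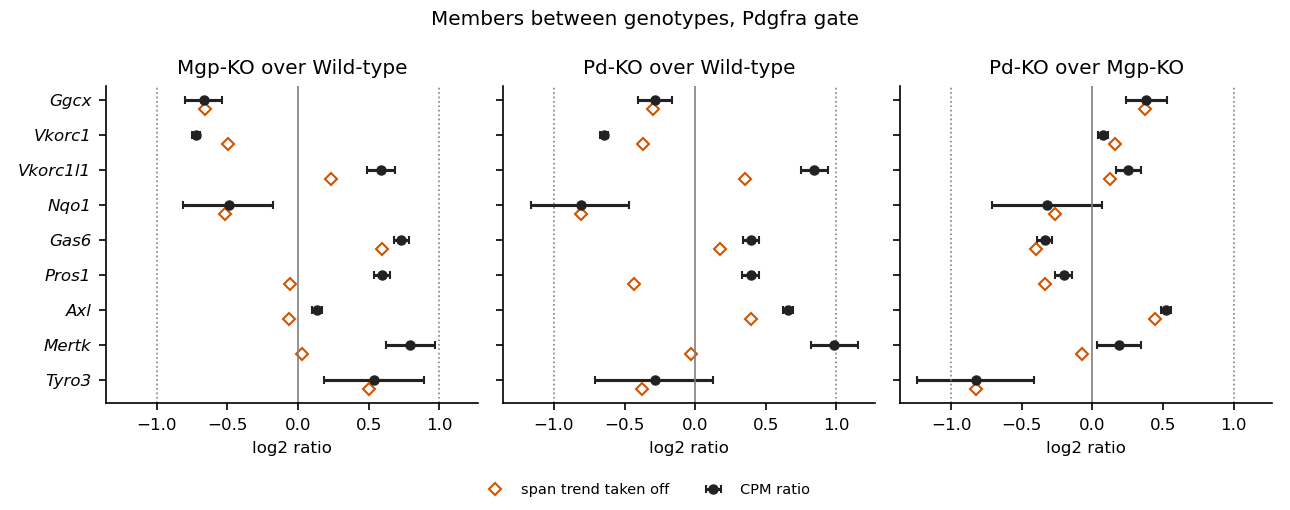
Log2 ratio of the level of each member between genotypes in the *Pdgfra* gate (horizontal axis, dotted lines at 2-fold) with 95% intervals for counting error, and, as open diamonds, the same after the trend with genomic span had been taken off. All ratios lie within 2-fold. Those of *Mertk* and *Pros1* over wild-type lie at or below 0 once the trend is taken off, except *Mertk* at 0.03 in *Mgp*-KO cells.

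These ratios moved with the genomic span of a gene, from its start to its end with introns. In the *Pdgfra* gate, the median log2 ratio of the *Mgp*-KO to the wild-type library was -0.20 for 1921 genes under 5 kb, -0.06 for 4580 genes of 5 to 20 kb, 0.22 for 4382 genes of 20 to 60 kb and 1.04 for 3449 genes of 60 kb or more. For *Pd*-KO over wild-type the medians were -0.32, -0.09, 0.28 and 1.18. The 5 members that were higher in both knockouts have long spans, 104 kb for *Mertk*, 75.04 kb for *Pros1*, 44.7 kb for *Vkorc1l1*, 31.4 kb for *Axl* and 29.1 kb for *Gas6*. *Vkorc1* spans 2.56 kb, *Nqo1* 14.98 kb and *Ggcx* 16.4 kb. As the software that made the counts, the deposited files give Cell Ranger 4 in the wild-type header and 7.1.0 in both knockout headers, and they do not state how intron reads were counted. Genotype and software version cannot be told apart.

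Once the median ratio of 200 genes of similar span had been subtracted, *Mertk* was left at 0.03 in *Mgp*-KO and -0.03 in *Pd*-KO cells, and *Pros1* at -0.06 and -0.44. *Vkorc1l1* kept 0.23 and 0.35 and *Gas6* 0.59 and 0.18. *Axl* turned to -0.07 in *Mgp*-KO cells and kept 0.39 in *Pd*-KO cells. *Vkorc1* stayed lower at -0.50 and -0.37, *Ggcx* at -0.66 and -0.30, and *Nqo1* at -0.52 and -0.81. In the order of all genes without the trend removed, *Vkorc1* stood at percentile 5.57 in *Mgp*-KO and 11.2 in *Pd*-KO cells, and *Ggcx* at 6.42 and 24.5. Stress genes of cell dissociation set the *Pd*-KO library apart: 12 of 14 listed genes were 2-fold lower than in wild-type cells, with a median log2 ratio of -1.56, against 1 of 14 and 0.11 in *Mgp*-KO cells. The heat shock gene *Hspa1b*, the one 2-fold lower in both, stood at 170, 60.2 and 18.2 CPM (log2 ratio -1.50 and -3.22). Their part in the ratios of the members was not tested. Their part in the ratios of the members was not tested.

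**Figure D5:**
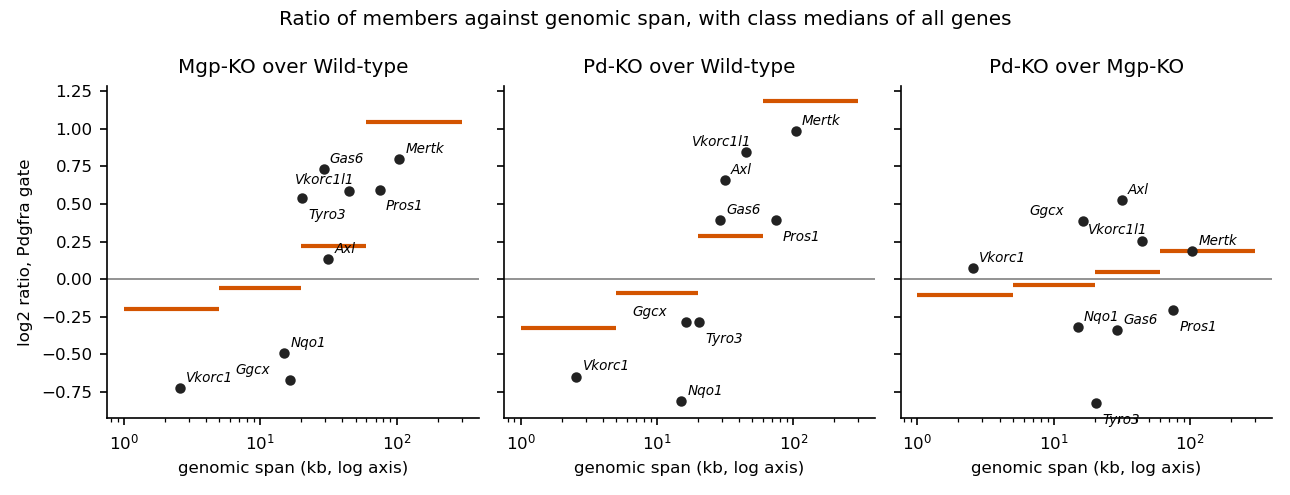
Log2 ratio of each member in the *Pdgfra* gate (vertical axis) against its genomic span in kb (log axis), with the median of all genes of each span class as a bar. The bars climb from -0.20 to 1.04 and from -0.32 to 1.18 for the knockouts over wild-type, and from -0.10 to 0.19 for *Pd*-KO over *Mgp*-KO.

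The knockouts, whose headers name the same software, were also set against each other, a comparison added after the data had been seen. In the *Pdgfra* gate 0 of 9 members were 2-fold apart, against 8.34% of 14488 genes, and the medians of the span classes ran only from -0.10 to 0.19. *Axl* was higher in *Pd*-KO than in *Mgp*-KO cells by 0.52 (0.49 to 0.56) on the log2 scale, and *Ggcx* by 0.38 (0.24 to 0.53). *Gas6* was lower at -0.34 (-0.39 to -0.28), *Pros1* at -0.20 (-0.26 to -0.14) and *Tyro3* at -0.82 (-1.24 to -0.42). *Vkorc1* was nearly equal at 0.08 (0.04 to 0.11). In cells called male *Gas6* was instead higher in *Pd*-KO cells (0.38), *Pros1* too (0.09), and *Vkorc1* lower (-0.26). All 14 stress genes were 2-fold lower in *Pd*-KO than in *Mgp*-KO cells (median -1.73), and their part was not tested.

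In the other gates fewer members reached 50 UMIs over the pair of libraries, and only these were compared. In the *Pecam1* gate, *Mertk* was 2-fold higher in both knockouts, at log2 ratios of 1.53 (0.98 to 2.06) and 1.72 (1.34 to 2.12). *Vkorc1* was lower there at -0.39 (-0.81 to 0.01) and -1.26 (-1.57 to -0.95). With these, 1 of 7 members in *Mgp*-KO and 2 of 7 in *Pd*-KO cells were 2-fold apart from wild-type, against 9.74% and 17.9% of all genes tested. With the span trend taken off, *Mertk* stayed past the mark in *Mgp*-KO cells at 1.27, and in *Pd*-KO cells *Mertk* at 0.94 and *Vkorc1* at -0.97 lay just under it.

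In the *Myh11* gate, *Gas6* was 2-fold higher in *Mgp*-KO cells at 1.09 (0.75 to 1.41). It was 1 of 6 members, against 16.1% of all genes. The part of the myoepithelial markers of that library in this value was not tested. In *Pd*-KO cells, *Vkorc1l1* at 1.65 (1.07 to 2.23), *Mertk* at 1.32 (0.94 to 1.70) and *Pros1* at 1.06 (0.69 to 1.41) were 2-fold higher, 3 of 7 members against 18.0% of all genes. With the span trend taken off these came to 1.28, 0.47 and 0.45, and *Gas6* in *Mgp*-KO cells to 1.06. In the *Epcam* gate, *Vkorc1l1* was 2-fold higher in both knockouts, at 1.21 (0.75 to 1.69) and 1.30 (0.64 to 1.94), 1 of 6 and 1 of 3 members against 15.5% and 22.3% of all genes. With the span trend taken off these came to 0.86 and 0.80. *Vkorc1* had a log2 ratio below 0 and *Vkorc1l1* one above 0 in each of the 4 gates and both knockouts. The intervals excluded 0 except for both genes in the *Pecam1* gate of the *Mgp*-KO library.

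The wider pathway was read from lists that held no member. Of 10 other genes of the vitamin K cycle and quinone reduction, 8 had enough UMIs in the *Pdgfra* gate, and 0 were 2-fold apart in either knockout. Their median log2 ratio was 0.05 in *Mgp*-KO and 0.24 in *Pd*-KO cells, near the medians of all genes at 0.16 and 0.20. *Calu*, an inhibitor of the carboxylase in the endoplasmic reticulum, stood at 310, 294 and 360 CPM in the 3 libraries. Of 15 other Gla proteins, 5 were compared. *Mgp* was lower by design, and *Prrg1*, a transmembrane Gla protein that spans 134 kb, was higher at 15.9, 37.4 and 56.3 CPM (log2 ratio 1.24 and 1.83). In *Pd*-KO cells *F7* was also 2-fold lower, with 0.0228 CPM against 0.944 CPM and a log2 ratio of -5.37 (-10.70 to -2.84) that rests on 1 UMI.

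All 16 partners and relatives of the TAM receptors were compared. In *Mgp*-KO cells 4 were 2-fold higher and 0 lower, with a median of 0.54, and in *Pd*-KO cells 3 were higher and 1 lower, with a median of 0.42. Of all genes, 19.7% and 22.0% were 2-fold higher and 3.19% and 5.82% lower, so that the shares of the list lay near the background. With the span trend taken off the medians were 0.09 and -0.24. *Elmo1*, an adaptor for engulfment that spans 518 kb, stood at 5.40, 72.1 and 77.1 CPM (log2 ratio 3.74 and 3.84), and *Ptk2*, a focal adhesion kinase gene of 218 kb, at 25.6, 88.0 and 106 CPM (1.78 and 2.05). Both span more than any member. *Tub* and *Tulp1*, ligands of the tubby family, were the others higher in *Mgp*-KO cells (1.32 and 1.35). The integrin *Itgb3* was higher (1.09) and the cytokine signalling inhibitor *Socs3* lower (-1.85) in *Pd*-KO cells. *Mfge8*, which like *Gas6* bridges phosphatidylserine to a receptor, stood at 170, 133 and 142 CPM. Of 18 targets of the factor Nrf2, of which *Nqo1* is another, 2 were 2-fold higher and 0 lower in *Mgp*-KO and 1 higher and 2 lower in *Pd*-KO cells, with medians of -0.05 in both, against the same shares of all genes. These were *Gclc* (2.28) and *Slc7a11* (1.67) in *Mgp*-KO cells, and *Slc7a11* (2.45), *Hmox1* (-1.43) and *Gsta4* (-1.37) in *Pd*-KO cells. *Slc7a11* spans 551 kb and stood at 1.49, 4.75 and 8.14 CPM in the 3 libraries. With the span trend taken off, the medians of the Nrf2 targets were -0.17 in *Mgp*-KO and -0.54 in *Pd*-KO cells. The list genes other than *Mgp*, *Prrg1*, *Elmo1*, *Ptk2* and *Hspa1b* were chosen to be named after their values had been seen.

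The genes most like each member were named over the 15 sums of gates with at least 50 cells by Pearson's r of log2(CPM + 1) among 9518 genes. They share libraries and depth, and no p was computed. *Axl* was most like *Mxra8* (r = 0.980) and *Ddr2* (0.968), *Vkorc1* like *Selenos* (0.973) and *Il11ra1* (0.949), and *Mertk* like *Anxa11* (0.973) and *Map7d1* (0.969). *Ggcx* was most like *Lrp3* (0.943) and *Adprh* (0.933), *Pros1* like *St6galnac6* (0.955) and *Akap12* (0.954), *Vkorc1l1* like *Rps6kb1* (0.877) and *Map2k5* (0.873), and *Gas6* like *Arl4d* (0.859) and *Sp140* (0.810). *Nqo1* was most like *Tgfb1* (0.934) and *Nectin2* (0.929) and *Tyro3* like *Snx6* (0.896) and *Bhlhe40* (0.895), although both members lay under the mean of 10 CPM asked of the other genes.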

How the data were processed

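Single cells of the CD45-depleted inguinal SVF were profiled by 10x Genomics 3' v3 chemistry, with 1 library per genotype. The authors deposited unfiltered UMI counts per gene and barcode, not normalized. The submitters' processing notes name Cell Ranger 6.1.1 and GRCm39, the methods mm10, and the file headers version 4 for the wild-type and 7.1.0 for the knockout libraries. The methods state that default parameters were used. How intron reads were handled is not named in the sources used here. The members and lists were chosen with earlier results of these data known.

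Barcodes with at least 2000 UMIs and at most 10% mitochondrial UMIs were kept, with 184102026, 93212243 and 83942865 UMIs in the 3 files (wild-type, then *Mgp*-KO, then *Pd*-KO). A gate asked for at least 2 UMIs of its marker among *Pdgfra*, *Pecam1*, *Rgs5*, *Myh11*, *Epcam*, *Ptprc* and 1 marker not reported here, and 0 of the others, except that *Rgs5* was allowed in the *Myh11* gate. The *Adipoq* gate asked for at least 10 UMIs of *Adipoq* with any *Pdgfra*, and up to 9 were allowed elsewhere. Cells in no gate, 47.5%, 47.1% and 39.1%, were left out. No doublet caller was run, and mixed cells were removed only as far as the markers exclude each other.

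UMIs were summed per gate and library. Gates were compared with edgeR 4.0.16 (R 4.3.3) by the quasi-likelihood test with TMM scaling, filterByExpr and the library as a block, with Benjamini-Hochberg adjustment and a threshold of 0.05. Standard errors were taken from the F statistic and are approximate. P-values measure how far a difference between gates varies over these 3 libraries, once the block has taken out the level of each library. Tested on simulated data for the *Pecam1* against the *Pdgfra* gate, 76 of 100 genes changed 2-fold and 100 of 100 changed 4-fold were recovered among 11426 genes, with 8 false calls. The simulation had no difference between libraries, 1 dispersion for all genes, and changed genes of at least 20 CPM only. Its rates thus cannot be carried over to these libraries. *Nqo1*, *Mertk* and *Tyro3* lay below that level in the *Pdgfra* gate. Genotype ratios were computed for genes with at least 50 UMIs over both libraries, without a test. Their intervals and those of levels (exact Poisson) and shares (exact binomial) are 95% and cover counting error only. Genomic spans came from GENCODE M21 and promoter sequences from RefSeq (GRCm38.p6), in which all 9 members matched. Named by rule were all 9 members, *Mgp*, list genes of at least 20 CPM that were 2-fold apart with the same sign in both knockouts, and the 2 genes most like each member. Alternatives varied the gate threshold, the cell filter, sex, thinning, scaling, the span trend, the minimum of UMIs and the library left out, and DESeq2 1.42.0 was run beside edgeR. Python 3.11.15, numpy 2.4.6, scipy 1.17.1 and pandas 2.3.3 were used.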

Additional observations from a re-analysis of the deposited data

Results flagged for a closer look

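*Gas6* had opposite signs in APCs and endothelial cells of the same library. *Pd*-KO over wild-type, the log2 ratio was 0.39 (0.34 to 0.45) in the *Pdgfra* gate and -0.39 (-0.65 to -0.14) in the *Pecam1* gate, with 1 library per genotype. The difference between the gates was not tested. *Vkorc1* differed in the same way between the knockouts, with a log2 ratio of *Pd*-KO over *Mgp*-KO of 0.075 (0.04 to 0.11) in the *Pdgfra* gate and -0.87 (-1.33 to -0.39) in the *Pecam1* gate. This difference was not tested either. Intervals cover counting error only.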

How the results depend on the processing

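Of 243 alternatives of the gate test, 220 kept direction and side of the threshold, 15 lost a call, 7 gained one and 1 reversed, *Gas6* in the *Pecam1* gate at 0.056 without the *Pd*-KO library. No paired analysis beyond the library block was possible because each genotype has 1 library. Without that block 3 members, not 6, were called lower in the *Myh11* gate and 1, not 2, higher in the *Epcam* gate, and leaving out libraries gave 3 to 6 and 1 to 2. Calls over all 13208 genes fell as well without the block. They went from 5362 to 3249 in the *Myh11* gate and from 8165 to 5808 in the *Epcam* gate. With a library left out they were 3606 to 4467 and 6571 to 6769. Without the filter on low counts 5 members, not 3, were called lower in the *Pecam1* gate, where 7120 of 24834 genes were called in place of 6217 of 13208.

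Of 374 alternatives of the genotype ratios in the *Pdgfra* gate, 261 stayed within the interval, 100 moved and 13 reversed. A change of sign was counted as reversed only where the interval of the reported ratio excluded 0. For *Mgp*-KO over wild-type, *Nqo1* came to 0.093 with thinned cells, *Pros1* to -0.057 with the span trend off, and *Tyro3* to -0.31 in cells called male. *Axl* came to -0.031 with the median of all genes off, -0.083 with TMM, -0.067 with the span trend off and -0.11 at equal subgate make-up. With the span trend off, *Pros1* came to -0.44 and *Mertk* to -0.029 for *Pd*-KO over wild-type, and *Mertk* to -0.076 for *Pd*-KO over *Mgp*-KO. In cells called male that last contrast gave -0.26 for *Vkorc1*, 0.38 for *Gas6* and 0.091 for *Pros1*. It also gave 1.11 for *Nqo1*, against -0.32 as reported with an interval that included 0. Of 590 alternatives in the other gates, 28 moved and 2 reversed, *Gas6* of *Mgp*-KO over wild-type at -0.087 in female cells of the *Pecam1* gate and *Axl* of *Pd*-KO over *Mgp*-KO at -0.095 in thinned cells of the *Myh11* gate. Ratios with an interval that included 0 changed sign as well. *Axl* of *Mgp*-KO over wild-type in the *Pecam1* gate, 0.38 as reported, fell to -0.54 at its lowest.

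The count of members past the mark in the *Pdgfra* gate, 0 as reported, depended on settings. The share of all genes past the mark is not given at these settings, so that the counts of this paragraph have no background beside them. At a mark of 1.5-fold it was 4 higher and 2 lower in *Mgp*-KO, 3 higher and 2 lower in *Pd*-KO, and 1 between the knockouts. In male cells it was 1 lower in *Mgp*-KO and 1 between the knockouts. In female cells it was 2 higher and 1 lower in *Pd*-KO and 1 between the knockouts. For *Pd*-KO it was 1 higher at a gate of 3 UMIs, with thinned cells and at equal subgate make-up, and 1 lower with the median off or TMM. In the *Pecam1* gate of *Mgp*-KO the count was 2 (not 1) at a gate of 1 UMI, from 4000 UMIs, in female cells and at 1.5-fold, and 0 with thinned cells. In that gate of *Pd*-KO it was 0 (not 2) with the span trend off. In the *Myh11* gate of *Mgp*-KO it was 2 (not 1) at a gate of 3 UMIs, from 500 or 4000 UMIs and at 1.5-fold, 0 by the mean of single cells, with thinned cells or TMM, and 3 with no minimum of UMIs. In that gate of *Pd*-KO it was 1 (not 3) in female cells and with the span trend off. In the *Epcam* gate of *Mgp*-KO it was 0 (not 1) with thinned cells and with the span trend off, 3 with no minimum and 2 at 1.5-fold. In that gate of *Pd*-KO it was 2 (not 1) at a gate of 1 UMI and at 1.5-fold, 0 with the span trend off and 4 with no minimum. Without thinning 6 members of *Pd*-KO, not 3, had their highest share of cells in the *Pdgfra* gate.

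With the median of all genes off, the median of the vitamin K list was -0.11 in *Mgp*-KO and 0.036 in *Pd*-KO, and that of the stress list -0.058 in *Mgp*-KO. The Gla list came to 0.11 in *Mgp*-KO at a gate of 3 UMIs. With the span trend off the list of TAM partners came to 0.086 and -0.24. Apart from the settings that leave out cells, libraries or genes by construction, the cause was not tested. Low counts limit the values of *Tyro3*, *Ggcx*, *Mertk* and *Nqo1* in the *Epcam* gate and of *Tyro3*, *Ggcx* and *Nqo1* in the vascular gates.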
